A study of Homo sapiens with 4 samples.

Results

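The L1-family, NCAM and contactin genes are 10 of the 35606 genes counted in K562 cells labelled JAZF1-SUZ12 or mock. The members are NRCAM, L1CAM, NFASC and CHL1 of the L1 family, NCAM1 and NCAM2, and the contactins CNTN1, CNTN2, CNTN3 and CNTN4, each found by its symbol in the count table. They were chosen with the differences between JAZF1-SUZ12 and mock libraries of these data known. Their values in that contrast are therefore given as a description, with fold changes and standard errors, and nothing is concluded from whether they pass a threshold. K562 is an established human cell line from chronic myeloid leukaemia with erythroid traits. The JAZF1-SUZ12 fusion, found in endometrial stromal tumours, links JAZF1 to the Polycomb subunit SUZ12. RNA was sequenced from 2 K562 samples labelled JS, for the fusion, and 2 labelled mock. How the fusion was introduced, what the mock cells carry and whether either group is a clone are not given in the sources used here. Nothing says that the 2 samples of a group came from separate cultures, so p-values measure the spread between these samples, which may be technical.

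All 10 genes encode adhesion proteins of the immunoglobulin superfamily, built from immunoglobulin domains followed by fibronectin type III domains. L1-family proteins cross the membrane and bind ankyrin, and through it the spectrin skeleton, by their cytoplasmic tails. Contactins have no cytoplasmic part and are held by a glycosylphosphatidylinositol anchor, so that they act with partners in the same membrane. In neurons these proteins steer axon growth and fasciculation and assemble the node of Ranvier. None of them is a known marker of the erythroid lineage, whereas NCAM1, also called CD56, marks natural killer cells as well as neurons.

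Start-site sequences are shown for NRCAM, L1CAM and NFASC, the members that were higher in both JS libraries than in either mock library at more than 3 counts, and for CNTN4, which had 0 counts in every library. The share of all genes tested whose groups did not overlap is not given here. Nothing is therefore read from a lack of overlap between 2 and 2 libraries, in these or later genes. Each sequence is the 250 bases before the outermost start site of the gene in RefSeq on GRCh38.p14, written 5′ to 3′ on the strand of the gene, and capitals mark CpG dinucleotides. NRCAM is from chr7:108456437-108456686 on the minus strand, L1CAM from chrX:153876015-153876264 on the minus strand, NFASC from chr1:204828402-204828651 on the plus strand and CNTN4 from chr3:2098616-2098865 on the plus strand.
NRCAM: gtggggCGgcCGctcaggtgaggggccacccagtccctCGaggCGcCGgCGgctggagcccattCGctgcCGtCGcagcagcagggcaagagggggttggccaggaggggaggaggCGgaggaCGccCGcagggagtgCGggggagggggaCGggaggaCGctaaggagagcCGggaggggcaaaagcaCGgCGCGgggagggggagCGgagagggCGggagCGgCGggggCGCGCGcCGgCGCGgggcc
L1CAM: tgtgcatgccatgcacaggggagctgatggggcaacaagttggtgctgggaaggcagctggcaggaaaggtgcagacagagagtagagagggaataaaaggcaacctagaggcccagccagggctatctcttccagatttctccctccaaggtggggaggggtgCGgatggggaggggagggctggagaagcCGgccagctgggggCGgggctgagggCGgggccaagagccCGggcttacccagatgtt
NFASC: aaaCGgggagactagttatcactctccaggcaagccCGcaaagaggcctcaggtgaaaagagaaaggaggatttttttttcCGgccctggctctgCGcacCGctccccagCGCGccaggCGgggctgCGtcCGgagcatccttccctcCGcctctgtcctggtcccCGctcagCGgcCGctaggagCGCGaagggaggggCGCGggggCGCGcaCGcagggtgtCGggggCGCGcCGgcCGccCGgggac
CNTN4: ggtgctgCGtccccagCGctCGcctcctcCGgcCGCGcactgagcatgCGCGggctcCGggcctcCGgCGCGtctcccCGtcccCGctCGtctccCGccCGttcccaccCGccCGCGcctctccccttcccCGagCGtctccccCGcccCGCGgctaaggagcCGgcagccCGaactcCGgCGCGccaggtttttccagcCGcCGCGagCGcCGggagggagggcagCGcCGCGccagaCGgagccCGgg
The printed stretches hold 29 CpG dinucleotides for NRCAM, 5 for L1CAM, 27 for NFASC and 40 for CNTN4. The L1CAM start site lies 10.2 kb inside the gene as GENCODE 29 draws it, whereas those of NRCAM, NFASC and CNTN4 lie 0.281, 0.001 and 0.053 kb inside.

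The libraries held between 17260936 and 24423028 estimated counts. A library with at most 3 counts of a gene is treated as at the floor, which is between 0.123 and 0.174 counts per 1000000 (CPM) here, and such limits cover counting error only. Both fusion partners were higher in the libraries labelled JAZF1-SUZ12, with log2 fold changes of 5.05 for JAZF1 and 1.01 for SUZ12 (edgeR, adjusted p = 1.07e-10 and 1.15e-09). The source label names uterus, but all 10 erythroid markers examined, among them globins, GATA1 and KLF1, were present. Their sums were 9554 to 9859 CPM in the mock pair and 11214 to 11330 CPM in JS libraries. Of the 10, 5 were called higher in JS and 0 lower by edgeR, beside 13.3% higher and 11.4% lower among all genes tested. Of 12 neuronal markers, 5 (ELAVL3, ELAVL4, NEFL, NEFM and STMN2) had 0 counts in every library and 4 exceeded 3 counts in any. The summed level of the neuronal list was 58.7 and 59.0 CPM in the mock pair and 86.6 and 92.3 CPM in JS libraries, most of it from SYP, a synaptic vesicle protein, which rose from 39.4 ± 0.795 CPM to 71.8 ± 3.02 CPM (n = 2 each, SD; edgeR, adjusted p = 1.25e-07). TUBB3, a neuronal tubulin and the other marker of this list that was tested, was at 19.0 ± 0.245 CPM in the mock pair and 16.9 ± 0.752 CPM in JS (n = 2 each, SD; edgeR, adjusted p = 0.186). Of 10 glial markers, 2, S100B among them, were at 0 and 6 exceeded 3 counts in a library, with a summed level of 13.4 to 15.4 CPM in the mock pair and 13.0 to 15.8 CPM in JS libraries. Of 8 stromal markers, LUM was at 0 and 6 exceeded 3 counts, and the sum went from 11.6 and 12.2 CPM to 26.2 and 29.5 CPM. Most of that rise came from COL1A1, the only one called, at 5.79 ± 0.849 CPM in the mock pair and 21.4 ± 0.0731 CPM in JS (n = 2 each, SD). The part of other cells in the results was not tested, and in bulk RNA more cells of a kind cannot be told apart from more RNA per cell.

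Of the 10 members, 4 passed the filter on low counts, NRCAM, L1CAM, NFASC and NCAM2. NRCAM and NFASC passed it only through their JS libraries. Another 5 members had at most 3 counts in every library, and CNTN2 exceeded 3 counts but did not pass the filter. Past an adjusted p of 0.05 lay 2 of the 4, both higher, NRCAM and L1CAM. The same threshold called 24.7% of all 14750 genes tested, 13.3% higher and 11.4% lower, and nothing is read from the count since the members were chosen on this contrast.

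**Figure D1:**
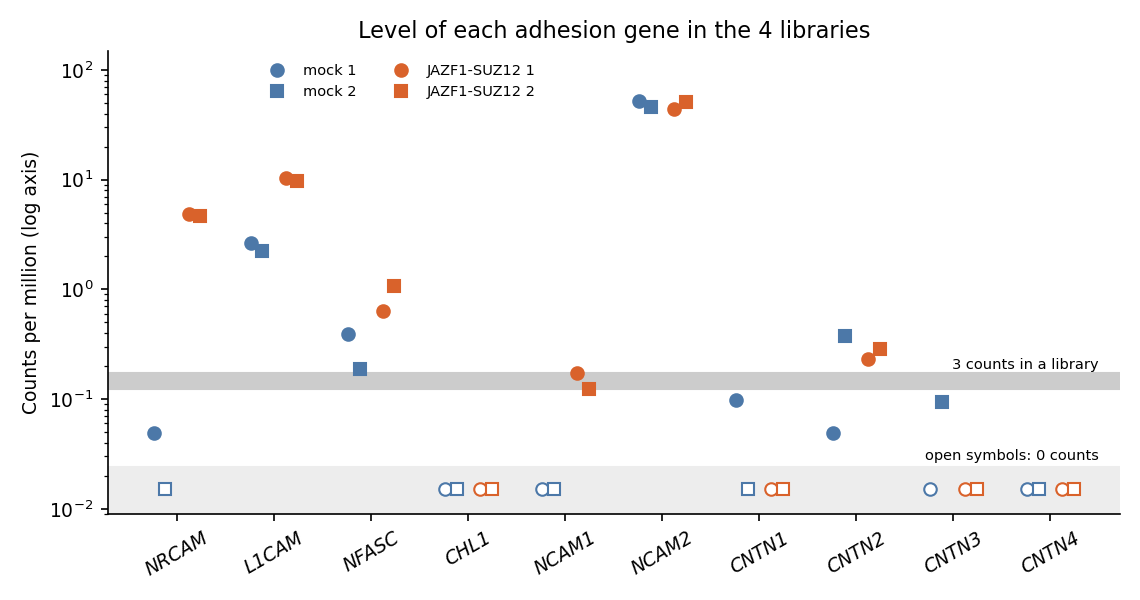
Counts per 1000000 on a log axis for each of the 10 genes in the 2 mock (blue) and 2 JAZF1-SUZ12 (orange) libraries, circles for replicate 1 and squares for replicate 2, with libraries at 0 counts drawn as open symbols in the light band and the level of 3 counts as the dark band. NRCAM lies at 4.87 and 4.67 CPM in JAZF1-SUZ12 libraries and at or near 0 in mock, while the 4 values of NCAM2 lie between 43.8 and 52.6 CPM.

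NRCAM (ENSG00000091129; GRCh38 chr7:108147623-108456717, minus strand) encodes the neuronal cell adhesion molecule that gathers sodium channels at the node of Ranvier. Mock libraries had 1 and 0 estimated counts of it, and JS libraries had 84 and 114. Both JS libraries were far above both mock libraries, with 4.87 and 4.67 CPM against 0.0489 and 0 CPM. Summed over each group, 198 counts stood against 1, a ratio of 198 with an exact 95% interval from 35.2 to 7870 that covers counting error only. The fitted log2 fold change was 7.30 ± 0.60, where the SE is derived from the F statistic. DESeq2 gave 7.61 with an SE of 1.49, so the size was less well fixed than ± 0.60 reads. In the edgeR fit, leaving out mock replicate 2 gave 6.41. If mock replicate 1 is left out, only a mock library with no NRCAM count remains, and against a floor of 3 counts in it NRCAM was at least 33.8-fold higher.

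L1CAM (ENSG00000198910; chrX:153861514-153886174, minus strand), the founding member of the family, promotes axon growth and is cut by ADAM proteases into a soluble form. Its estimated counts were 54 and 48 in mock and 179 and 236 in JS libraries. The groups did not overlap, and both mock libraries held the gene well above the floor. The mean level was 2.45 ± 0.274 CPM in the mock pair and 10.02 ± 0.5001 CPM in JS (SD, n = 2 each). The log2 fold change was 2.01 ± 0.20 (SE), a 4.02-fold difference, and leaving out one library at a time gave 1.89 to 2.11.

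NFASC (ENSG00000163531; chr1:204828651-205022822, plus strand) encodes neurofascin, whose isoforms sit on the axon at the node and on the glial loops beside it. It had 8.06 and 4.01 estimated counts in mock and 11.2 and 26.2 in JS libraries. All 4 libraries were above the floor and the groups did not overlap in CPM, although the highest mock value, 0.391 CPM, was near the lower JS value of 0.637 CPM. The log2 fold change was 1.55 ± 0.64 (SE). It was 1.10 without mock replicate 2, 1.12 without JS replicate 2 and 2.13 without mock replicate 1, so its size was poorly fixed at this depth. CHL1 (ENSG00000134121; chr3:196596-409417, plus strand), the close homologue of L1, had 0 counts in every library, which allows a level of up to 0.123 to 0.174 CPM per library.

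NCAM2 (ENSG00000154654; chr21:20998315-21543329, plus strand), a homophilic adhesion molecule best known from olfactory axons, was the most abundant member. It had 1075 and 987 estimated counts in mock and 756 and 1261 in JS libraries. The groups overlapped once depth was taken into account, with mock at 52.6 and 46.3 CPM and JS at 43.8 and 51.6 CPM. The log2 fold change was -0.066 ± 0.080 (SE). NCAM1 (ENSG00000149294; chr11:112961247-113278436, plus strand), its better known paralogue, had 0 counts in both mock libraries and 3 in each JS library. All 4 libraries were thus at the floor and no fold is given. Of the NCAM pair, one gene was thus the most abundant member and the other was at the floor. All 7 natural killer cell markers exceeded 3 counts in a library, KLRC1 only through 3.53 estimated counts in JS replicate 1. Their sum was 20.9 and 21.0 CPM in the mock pair and 21.8 and 24.5 CPM in JS libraries, and none of the 6 tested was called. Most of the sum came from PRF1, at 15.5 ± 0.909 CPM in the mock pair and 15.9 ± 1.81 CPM in JS (n = 2 each, SD).

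The contactins were at or near the floor. CNTN2 (ENSG00000184144; chr1:205042937-205078284, plus strand), also called TAG-1, joins the axon to myelin beside the node. It had 1.28 and 8.04 estimated counts in mock and 4.001 and 7.23 in JS libraries, so the groups overlapped and the mock libraries were farther apart than the group means. CNTN1 (ENSG00000018236; chr12:40692442-41072418, plus strand), which pairs with CNTNAP1, had 2 and 0 counts in mock and 0 in both JS libraries. CNTN3 (ENSG00000113805; chr3:74262568-74521140, minus strand) had 0 and 2 counts in mock and 0 in both JS libraries. CNTN4 (ENSG00000144619; chr3:2098813-3057956, plus strand) had 0 counts throughout. None of these 4 genes reached in JS libraries a level like that of NRCAM. A fall, or a rise that stays near the floor, was not detectable in them at this depth.

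Levels were compared between genes as CPM per kb of the longest annotated transcript. In mock, NCAM2 stood first at 6.08 ± 0.542 CPM per kb, above the same measure of 49.1% of the 14690 genes tested that have a length. L1CAM followed at 0.476 ± 0.0533 CPM per kb, above 15.7% of them. NFASC at 0.028 ± 0.0139 and CNTN2 at 0.0265 ± 0.0289 CPM per kb came next and did not differ beyond their spread, and the other 6 members were at the floor (SD, n = 2 each). With the mean transcript length in place of the longest, mock levels were 17.2 for NCAM2, 1.51 for L1CAM, 0.0649 for NFASC and 0.072 CPM per kb for CNTN2, so the order of NFASC and CNTN2 turned. In JS libraries NCAM2 was again first at 5.87 ± 0.681 CPM per kb and L1CAM second at 1.95 ± 0.0973. NRCAM came after it at 0.713 ± 0.021 CPM per kb, from the floor in mock, with no overlap with L1CAM above it or with NFASC below it. NFASC at 0.0824 ± 0.0292 stood above CNTN2 at 0.0324 ± 0.00485 CPM per kb without overlap. Even where NRCAM and L1CAM were higher, they stood above only 16.2% and 28.1% of the genes tested.

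**Figure D2:**
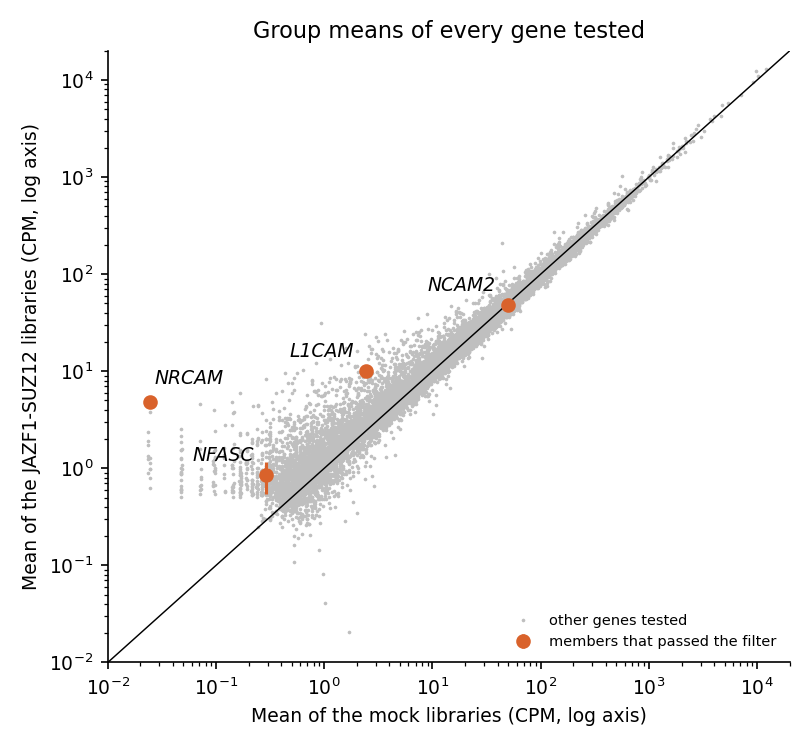
Mean CPM of the JAZF1-SUZ12 libraries against mean CPM of the mock libraries, both on log axes, for genes tested with a mean above 0 in both groups (grey) and the 4 members that passed the filter (orange, vertical bars are the SD of the 2 JAZF1-SUZ12 libraries). NCAM2 lies on the diagonal, where both groups are equal, and NRCAM lies at the left edge with a mock mean of 0.0245 CPM and a JAZF1-SUZ12 mean of 4.77 CPM.

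Genes that act with these molecules were examined in 5 lists holding 121 genes, of which 85 were tested. In all, 21 rose and 6 fell (edgeR quasi-likelihood test, adjusted over all genes tested), beside 13.3% higher and 11.4% lower among all genes tested. The median log2 fold change was 0.082, against 0.0032 over all genes. The lists, like the members, were chosen with earlier results of these data known. Their calls, medians and p-values are therefore a description, and nothing is concluded from the number that rose. The 21 that rose and the median include genes that passed the filter only through their JS libraries. The number that fell was 3 without mock replicate 1, 3 without mock replicate 2, 3 without JS replicate 2 and 1 at an adjusted p under 0.01.

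Among 40 related adhesion molecules, 18 were tested, of which 6 rose, 1 fell and 11 were not called, with a median log2 fold change of 0.33. KIRREL1, a nephrin-like adhesion protein, had 104 and 121 counts in mock and 302 and 509 in JS libraries, a log2 fold change of 1.81 ± 0.14 (SE; edgeR, adjusted p = 1.91e-07). NRXN2, a presynaptic neurexin, had 18 and 12 counts against 77 and 122, a change of 2.69 ± 0.33 (SE; edgeR, adjusted p = 2.20e-05). NECTIN1, an adherens junction protein, had 11 and 31 counts against 101 and 136. In each of these genes both JS libraries were above both mock libraries in CPM. MDGA1, an anchored regulator of synaptic adhesion, and CADM4, a glial adhesion molecule, rose by 1.15 and 0.95 on the log2 scale. MCAM, or CD146, was the gene that fell, from 185 ± 2.77 CPM to 143 ± 1.25 CPM (n = 2 each, SD; edgeR, adjusted p = 2.54e-05). NLGN2, a postsynaptic neuroligin, rose by 0.30 (edgeR, adjusted p = 0.00916), but the adjusted p was 0.062 with DESeq2 and 0.0855 with edgeR without mock replicate 1. NECTIN2, among the 3 of the list with the highest CPM, changed by 0.062 (edgeR, adjusted p = 0.457). Of the remaining 22 genes, 10 had at most 3 counts in every library.

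Of 34 extracellular partners, 24 were tested, of which 10 rose and 1 fell, with a median log2 fold change of 0.47. FGFR1, the growth factor receptor that L1 and NCAM proteins engage, had 34.7 and 33.6 estimated counts in mock and 191 and 327 in JS libraries. Both JS libraries were far above mock, and the difference was 2.87 ± 0.20 on the log2 scale (SE; edgeR, adjusted p = 6.67e-08). NRP2, a semaphorin receptor that forms complexes with NRCAM, had 4.02 and 3.20 counts in mock against 22 and 45.1. It is among the 10 that rose but passed the filter only through its JS libraries. So did SCN4B, named after its value was seen, with 3 and 0 counts in mock against 15 and 17 in JS libraries. The log2 fold changes, 3.16 ± 0.60 for NRP2 and 3.30 ± 0.90 for SCN4B (SE), are therefore given as a description. For NRP2 the SE with DESeq2 was 0.85. The 10 that rose and the list median include both genes. SEMA3F, the ligand of NRP2, rose from 7.09 ± 1.73 CPM to 15.7 ± 1.37 CPM (n = 2 each, SD; edgeR, adjusted p = 8.93e-05). CD24, a sialoglycoprotein that binds L1, rose by 1.19 on the log2 scale, although pseudogene copies can share its reads. RTN4R, the Nogo receptor, and MAG, a myelin glycoprotein, rose by 0.86 and 0.92. The integrin subunit ITGA5 rose by 0.21 (edgeR, adjusted p = 0.00623), with an adjusted p of 0.0845 without mock replicate 1, while ITGB1 and the amyloid precursor relative APLP2, both abundant, changed by -0.087 and 0.039 (edgeR, adjusted p = 0.195 and 0.59). The partner that fell, named after its value was seen, was PRNP, the prion protein, by 0.29 (edgeR, adjusted p = 0.0205). PRNP was not called with DESeq2 (adjusted p = 0.123) or by edgeR without JS replicate 1 or mock replicate 2 (adjusted p = 0.0671 and 0.0847).

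Inside the cell the changes were small. Of 26 cytoplasmic partners, 24 were tested, of which 5 rose and 2 fell, with a median log2 fold change of 0.0083. The genes that rose included SPTAN1, the widely expressed alpha spectrin, by 0.52, and SPTB, the beta spectrin of the red cell skeleton, by 0.18 on the log2 scale (edgeR, adjusted p = 5.26e-05 and 0.0273). The kinase FYN, named after its value was seen, rose by 0.21 (edgeR, adjusted p = 0.034). Its adjusted p was 0.144 with DESeq2, and with edgeR 0.242 without JS replicate 1, 0.156 without mock replicate 1 and 0.0715 without mock replicate 2. The adjusted p of SPTB was 0.197 without JS replicate 1 and 0.206 without mock replicate 1. EZR and MSN, which tie membrane proteins to actin, fell by 0.18 and 0.13 (edgeR, adjusted p = 0.0138 and 0.0258). EZR was not called without JS replicate 2 or without mock replicate 1 (edgeR, adjusted p = 0.136 and 0.0505), nor MSN without JS replicate 2 or without mock replicate 2 (edgeR, adjusted p = 0.0762 and 0.0839). ANK1, the erythroid ankyrin, was at 339 ± 9.70 CPM in the mock pair and 359 ± 9.97 CPM in JS (n = 2 each, SD; edgeR, adjusted p = 0.359). The endocytic adaptor AP2M1 changed by -0.10 (edgeR, adjusted p = 0.096, and 0.0453 without JS replicate 1).

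Of 13 processing enzymes, 11 were tested, none rose and 1 fell, with a median log2 fold change of -0.025. NCSTN, a subunit of gamma-secretase, fell by 0.19 (edgeR, adjusted p = 0.0295), but its adjusted p was 0.118 with DESeq2, and with edgeR 0.173 without JS replicate 2, 0.0704 without mock replicate 1 and 0.0858 without mock replicate 2. ADAM10, which sheds L1 and other members, changed by -0.14 (edgeR, adjusted p = 0.0625). That p was 0.0463 with limma-voom, 0.0415 with no filter, 0.0485 with the replicate number as a block and 0.0293 without JS replicate 1. APH1A, a further gamma-secretase subunit, changed by -0.042 (edgeR, adjusted p = 0.617). All 8 genes of the REST complex, which silences neuronal genes such as L1CAM in other cells, were tested, with none risen, 1 fallen and a median log2 fold change of -0.057. HDAC2 fell by 0.17 (edgeR, adjusted p = 0.0151), with an adjusted p of 0.086 without JS replicate 2 and 0.101 without mock replicate 1. KDM1A and HDAC1 changed by -0.014 and -0.064 (edgeR, adjusted p = 0.864 and 0.352), and REST itself by -0.035 (edgeR, adjusted p = 0.777); REST was named after its value was seen.

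**Figure D3:**
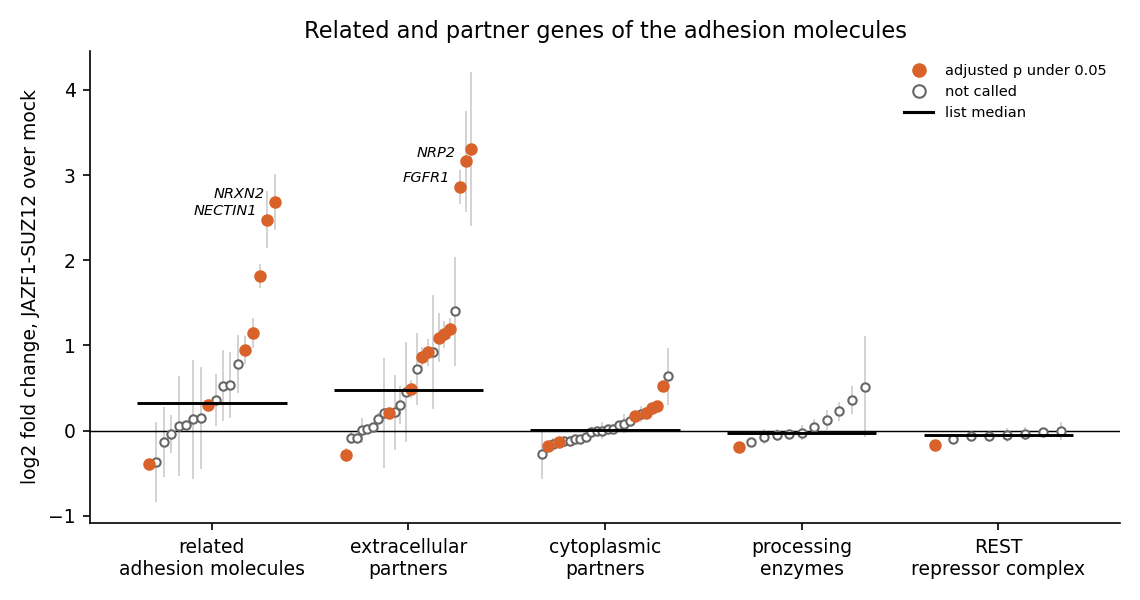
log2 fold change of JAZF1-SUZ12 over mock (vertical axis) for each tested gene of the 5 lists, ordered by value within a list, with grey bars for the standard error, filled points for genes with an adjusted p under 0.05 and a black line at the list median. The related and extracellular lists have medians of 0.33 and 0.47 and reach beyond 2, whereas all genes of the other 3 lists lie within 1 of 0.

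The surroundings of the members were examined through the nearest tested gene on each side, 15 genes in all that are no member, of which 2 rose, 1 fell and 12 were not called, beside 24.7% called among all genes. PDZD4, a PDZ domain protein 30.9 kb from L1CAM (chrX:153802166-153830565), had 0.698 ± 0.257 CPM in the mock pair and 5.75 ± 0.0267 in JS (SD, n = 2 each), and rose by 3.02 ± 0.31 on the log2 scale (SE; edgeR, adjusted p = 3.74e-06). On the other side of L1CAM, AVPR2, the vasopressin receptor of the kidney, changed by 1.35 ± 0.60 (SE), with an adjusted p of 0.118 by edgeR. AVPR2 passed the filter only through its JS libraries. LAMB1, a laminin chain 144 kb from NRCAM, rose from 38.1 ± 0.527 CPM to 52.8 ± 2.98 CPM (n = 2 each, SD; edgeR, adjusted p = 0.000164). PNPLA8, a phospholipase 13.7 kb from the 5′ end of NRCAM, changed by 0.052 (edgeR, adjusted p = 0.632). TRNT1, which adds the CCA end to transfer RNAs and lies 69.0 kb from CNTN4, fell by 0.24 (edgeR, adjusted p = 0.0226). TRNT1 was not called with DESeq2 (adjusted p = 0.138), nor by edgeR without JS replicate 1, JS replicate 2 or mock replicate 1 (adjusted p = 0.0596, 0.0705 and 0.0834). NFASC and CNTN2 are themselves neighbours, 20.1 kb apart on chromosome 1, and CHL1 and CNTN4 lie 1689 kb apart on chromosome 3. The neighbours of NCAM2, PPIAP22 and MRPL39, lie 2140 and 4042 kb away and passed no threshold (edgeR; adjusted p of 0.355 and 0.118). No gene that overlaps a member in GENCODE 29 and is in the count table had a count in any library.

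**Figure D4:**
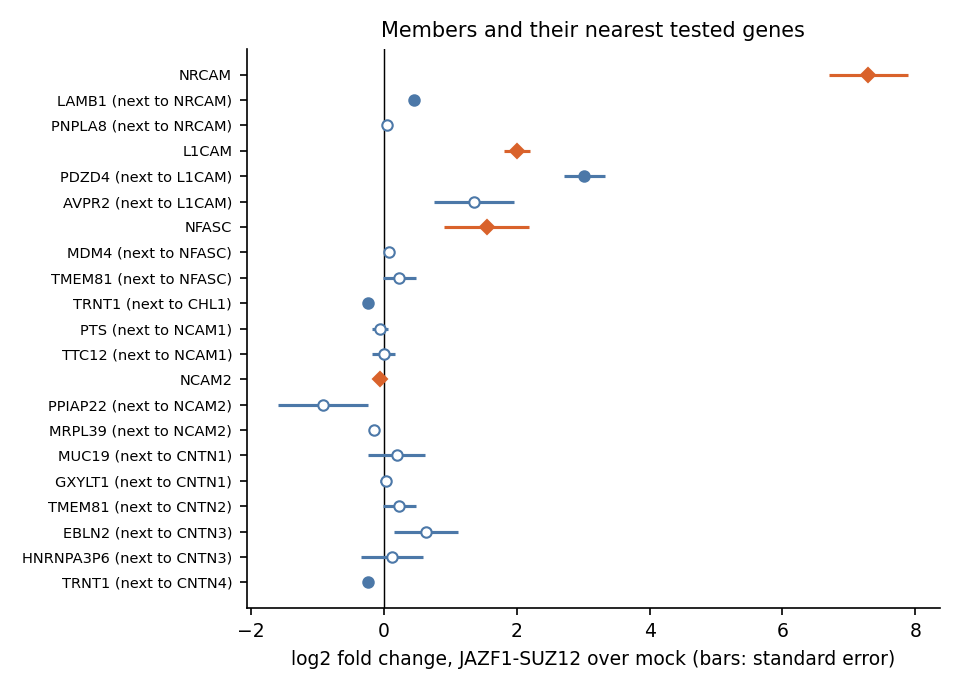
log2 fold change of JAZF1-SUZ12 over mock (horizontal axis, bars are the standard error) for the 4 members that passed the filter (orange diamonds) and the nearest tested gene on each side of every member (blue circles, filled where the adjusted p was under 0.05). PDZD4 at 3.02 and LAMB1 at 0.45 are the neighbours called higher, and TRNT1 at -0.24, drawn beside both CHL1 and CNTN4, is the one called lower.

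The genes whose log2(CPM + 0.5) lay closest to NRCAM over the 4 libraries were SEPTIN3, CACNA1G and FXYD6, at Euclidean distances of 0.476, 0.523 and 0.559. SEPTIN3 had 1 and 0 estimated counts in mock and 75 and 80.0 in JS libraries. CACNA1G had 1 and 2 against 99.4 and 83, and FXYD6 had 1 and 3 against 79 and 82. Each was at the floor in mock and well above it in both JS libraries, as NRCAM was, which follows from choosing them by closeness to NRCAM. Closest to NCAM2 were HSPA13, ZNF195 and ALDH5A1, at distances of 0.108, 0.109 and 0.115, with log2 fold changes of -0.019, -0.074 and -0.043.

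Start-site windows of 300 bases, 250 before and 50 after the start, were found in RefSeq for 9 of the 10 members, 18 windows in all, with none for NCAM1. The outermost NRCAM window holds 38 CpG dinucleotides, and 9.91% of the 35116 windows in the table, whose median is 14, hold as many or more. Over the 200 bases before the start alone, that share was 17.2%, with 23 CpG for NRCAM and 25 for NFASC. The other NRCAM start sites, 128 and 213 kb further in, have 1 and 3. The L1CAM windows have 8 and 10, below the median, and the outermost NFASC window has 35. The windows richest in CpG belong to CNTN4 with 46 and CNTN3 with 43, both at the floor in every library, and the CNTN3 window lies outside the gene as GENCODE 29 draws it. Among these windows the order by CpG count was not the order by level, and a link between the 2 was not tested. NCAM2, the most abundant, has a single listed window with 16, which lies 149 kb inside its gene. The hexamer GGGCGG, searched on both strands and itself holding a CpG, was in 7 of the 18 windows and in 45.0% of all windows, with 2 matches in the outermost NRCAM window. The letters TATAAA, searched on both strands, were in 1 of 18 windows, the inner one of CNTN4, and in 11.5% of all. The gene-level counts do not show which start site was used.

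**Figure D5:**
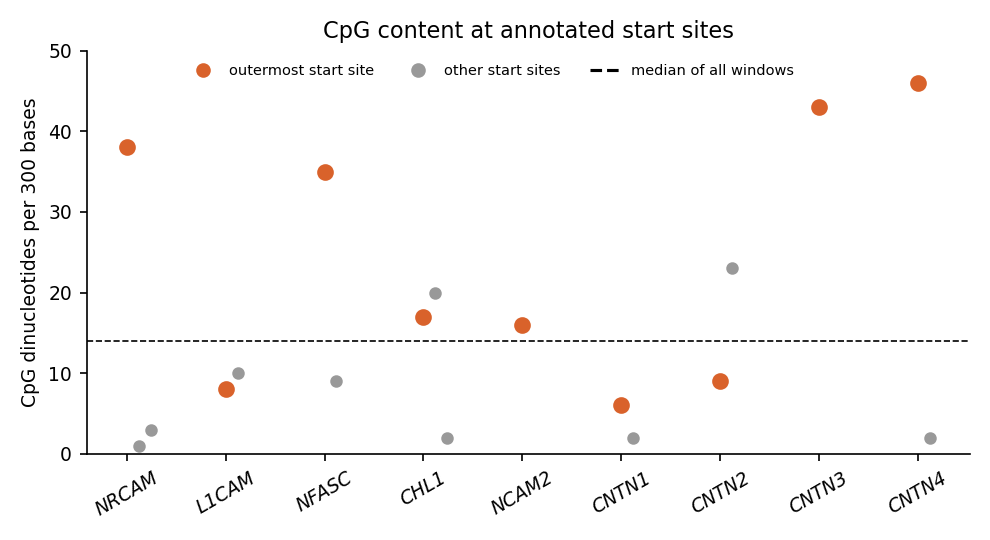
Number of CpG dinucleotides per 300-base window (vertical axis) at the start sites that RefSeq lists for 9 members, with the outermost site in orange, others in grey and the median of all windows as a dashed line. CNTN4, CNTN3, NRCAM and NFASC lie at 35 or above, and L1CAM lies below the median of 14.

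The authors' deposited table of the same contrast lists 8 of the 10 members, all but CHL1 and CNTN4. There, the authors' deposited table gives 1.58 (SE 0.366) for L1CAM and 0.056 (SE 0.162) for NCAM2 on the log2 scale. For NRCAM it was 5.36 with a standard error of 1.42 in the authors' deposited table, smaller than the 7.30 fitted here from the counts. For NFASC the authors' deposited table gave 0.68 with a standard error of 1.22, against 1.55 here. NRCAM and L1CAM were thus higher in JS libraries in both, by smaller amounts in the authors' table. The sign for NCAM2 differed, with both values smaller than their standard errors. Both sets of values come from the same samples, so the shared direction is no independent check. For NRCAM the authors' mean of normalized counts was also only 0.474 of the mean recomputed from the counts.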

How the data were processed

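RNA was sequenced from K562 cells as poly(A) directional libraries, per the labels' protocols. The authors deposited estimated counts per gene, not normalized. The submitters' processing notes name fastp 0.20.1, FastQC 0.11.7, MultiQC 1.5, kallisto 0.46.2, DESeq2 1.30.1 and hg38, with no role or order, and whether counting used strand is not given in the sources used here. The authors' deposited comparison holds, per the file headers, a mean of normalized counts (a signal), a log2 fold change with its standard error, a score (the test statistic) and a p-value with its adjusted form, which was not used.

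Counts were rounded, filtered with filterByExpr (14750 genes), scaled by TMM and tested with edgeR 4.0.16 (quasi-likelihood, group only, R 4.3.3), two-sided, with Benjamini-Hochberg adjustment over all genes and 0.05 as the threshold. CPM is a rounded count over the library total of 17260936 to 24423028, times 1000000. The standard error is the log2 fold change over the square root of F. With 2 libraries per group every SD is imprecise. Positions and transcript lengths came from GENCODE 29 on GRCh38, which matched 35410 of 35606 IDs, and start-site windows from RefSeq on GRCh38.p14.

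The members and lists were chosen with earlier results of these data known. Named were all members, up to 6 called genes with the smallest p and the 3 of highest CPM in each list, the nearest tested gene with a symbol on each side of a member, the 3 nearest profiles of NRCAM and of the most abundant member, and JAZF1 and SUZ12; a few of these are not reported here. The alternatives were other scalings, DESeq2 1.42.0, limma-voom (limma 3.58.1), other filters, a stricter threshold, the replicate number as a block, leaving out each library, another length and another window. Tested on simulated counts for this comparison, edgeR recovered 173 of 200 genes changed 2-fold among 14465, with 11 false calls. The changed genes were drawn only from those above a minimum mean count, so recovery at low counts was not tested. They were also a far smaller share than the 24.7% called in these data.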

Additional observations from a re-analysis of the deposited data

How the results depend on the processing

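Fold changes of the 4 members that passed the filter kept their direction under every other scaling, test and filter tried. That of NRCAM was 7.61 (SE 1.49) with DESeq2 and 6.82 (SE 0.76) with limma-voom, against 7.30 (SE 0.60) on the log2 scale. With a mean of at least 50 counts NRCAM and NFASC were not tested. Over all genes, 3643 calls became 2407 with DESeq2, with 1051 lower in place of 1688, and the cause was not tested. At an adjusted p under 0.01 there were by construction fewer calls. They numbered 2045, with 1255 higher and 790 lower, and 1 partner gene was lower.

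Leaving out one library at a time, which assumes that a lone sample varies like the other group, gave log2 fold changes from 6.41 to 9.64 for NRCAM (the highest without mock replicate 1, where mock is at 0 and the fitted value depends on the prior count), 1.89 to 2.11 for L1CAM, 1.10 to 2.13 for NFASC and -0.18 to 0.024 for NCAM2, which changed sign without mock replicate 1 and without JS replicate 1. Calls ranged from 2568 to 3782 over all genes, with 1498 to 1841 higher and 1070 to 1941 lower, the lowest of each without JS replicate 2, and from 21 to 25 among partner genes, with 18 to 19 higher and 3 to 7 lower.

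Same-numbered libraries did not deviate together (correlation -0.00072 over 14750 genes). Blocking on the replicate number, 4061 genes and 28 partner genes were called, and the log2 fold changes were 7.30 for NRCAM and 2.01 for L1CAM. Among the named genes that are no member and were followed through the alternatives, 529 of the fits kept direction and side of the threshold. Of the other fits, 26 lost the call and 5 gained it, as the text gives, and 17 changed sign, all in genes not called. With total counts only and with a mean of at least 50 counts, KDM1A changed to 0.0079 and 0.0098 and TTC12 to 0.016 and 0.018 on the log2 scale. Leaving out one library at a time gave ranges of log2 fold changes that span 0: -0.049 to 0.080 for GXYLT1, -0.15 to 0.32 for HNRNPA3P6, -0.041 to 0.17 for MDM4, -0.14 to 0.60 for MUC19, -0.014 to 0.098 for PNPLA8, -1.66 to 0.68 for PPIAP22, -0.19 to 0.069 for PTS, -0.13 to 0.041 for REST, -0.054 to 0.44 for TMEM81 and -0.099 to 0.069 for TTC12. The cause was not tested. Depth limits the 6 members outside the filter, whose changes could not be estimated.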

Other observations

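The mean of normalized counts in the authors' deposited table was compared with the same mean computed from the deposited counts with DESeq2 size factors. Over the 14489 genes with a mean of at least 10, the ratio of the authors' mean to the recomputed mean had a median of 1.003, a 1st percentile of 0.926 and a 99th percentile of 1.17. NRCAM had the lowest ratio of all these genes, 0.474, at 23.2 in the authors' deposited table against 48.9 recomputed, and was the only one at or below 0.5. L1CAM and NFASC had 0.926 and 0.927, near the 1st percentile, and NCAM2 had 1.01. The cause was not tested. The comparison was chosen after the values of NRCAM were seen.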
